A study of Rattus norvegicus with 2 samples.

Results

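The mitochondrial respiratory chain genes of lens epithelial cells (LECs) were followed here in the Shumiya cataract rat (SCR), a strain with hereditary lens opacity. Members were taken by symbol from the annotation of the GeneChip Rat Gene 2.0 ST array. Probe sets that named 1 gene with a symbol of the Nduf a, b, c, s or v series, of Sdha to Sdhd, or starting with Uqcr, Cox4 to Cox8 or Atp5 were kept, with the brightest probe set per gene. This gave 100 of the 18166 genes that the array named, 49 for complex I, 4 for complex II, 9 for complex III, 18 for complex IV and 20 for complex V.

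The study set LECs of a cataractous (Cat+) SCR, of genotype Lss s/Lss l and carrying the Lss mutation, against LECs of non-cataractous (Cat-) SCRs, of genotype Lss s/Lss s and without it. Lss encodes lanosterol synthase, an enzyme of cholesterol synthesis, and the strain also carries mutant alleles of Fdft1, the squalene synthase gene. Rats were 5 weeks old, were genotyped from tail DNA, and gave RNA of LECs with their lens capsules from a pair of eyes per group. Each group had 1 array, so no test, no p-value and no spread between animals could be given, and whether both eyes came from 1 rat, and the sex of the rats, could not be read from the labels or methods.

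The respiratory chain sits in the inner mitochondrial membrane. Complexes I and II pass electrons from NADH and succinate to ubiquinone, complex III passes them to cytochrome c, complex IV passes them to oxygen, and complex V, ATP synthase, uses the proton gradient that complexes I, III and IV build. Most subunits are encoded in the nucleus and imported, and a small core of complexes I, III, IV and V is encoded in mitochondrial DNA (mtDNA). In the lens, mitochondria are kept in the epithelium and in young fiber cells and are degraded as fibers mature.

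Both arrays covered nearly the same range, with values from 4.13 to 12.56 (Cat+) and from 4.13 to 12.50 (Cat-) on the log2 scale, medians of 5.69 (Cat+) and 5.67 (Cat-), and a correlation of 0.989 across 29870 probe sets. Lss read 6.50 in Cat+ and 6.46 in Cat-, and Fdft1 read 8.58 in Cat+ and 8.78 in Cat-. These signals do not check the genotypes. Of 9 lens epithelium markers all 9 were measured and 7 were higher in Cat+, among them Clu with 12.08 in Cat+ and 11.90 in Cat-, and their summed linear signal was 9943 in Cat+ and 8957 in Cat-. All 11 measured lens fiber markers, of 12 listed, were lower in Cat+, with a median fold of 0.276 and summed signals of 13055 in Cat+ and 26242 in Cat-. The 7 that were 2-fold or more lower were already reported as lower by the study from these arrays. They were Lgsn, Mip, Crygc, Dnase2b, Bfsp1, Crygb and Lim2, so this count and median partly restate the study's own result. The rest, Crygs, Grifin, Gja3 and Cryba1, had folds of 0.575, 0.649, 0.659 and 0.970. Of 12 macrophage and leukocyte markers 11 were higher in Cat+ (summed signals 1911 in Cat+ and 1439 in Cat-), as were 7 of 9 measured retina markers (2517 in Cat+ and 1905 in Cat-) and 6 of 7 measured markers of iris and ciliary body pigment cells (1891 in Cat+ and 1697 in Cat-). Of the markers measured for cornea, striated muscle, and blood and endothelium, 3 of 4, 5 of 7 and 1 of 1 were higher in Cat+. Log2 array values have no zero and these came without detection calls, so no marker could be called absent. The part of these cell types in the values of the respiratory chain was not tested, and in bulk RNA fewer cells of a type and less RNA per cell cannot be told apart.

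Signals of the respiratory chain genes were mostly lower in Cat+ LECs, by small amounts. Of the 100 members, 75 were lower and 25 higher in Cat+, where 51.2% of all genes were lower. The members' median log2 difference, Cat+ minus Cat-, was −0.15 (fold 0.899), beside −0.005 (fold 0.997) over all 18166 genes. The size rule used here was a fold, Cat+ over Cat-, of 0.8 or less for lower signals and its inverse, 25% or more above Cat-, for higher signals. By this rule 21 members were lower in Cat+, beside 5.39% of all genes, and 0 members were higher, beside 3.36% of all genes. At 1.5-fold, 4 members were lower in Cat+ (Cox5b, Ndufa2, Cox6c and Ndufb5), beside 0.991% of all genes. No member differed 2-fold, the size rule of the study, beside 0.308% of all genes lower and 0.0055% higher by that much.

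The share of members that were lower was also read by signal. Of the 83 members whose mean log2 signal over both arrays reached the mean of the array medians, 67 were lower in Cat+, beside 53.3% of the 11033 genes that reached it, and 18 had a fold of 0.8 or less, beside 7.47%. Their median was −0.19, beside −0.015 for those 11033 genes. From a mean log2 signal of 4 upwards in steps of 1, the members lower in Cat+ were 1 of 6, 9 of 14, 15 of 21, 24 of 28, 16 of 19, 5 of 7 and 5 of 5. The share lower thus did not follow the signal in a steady way, and its largest bin, between 7 and 8, had a median of −0.23, where all genes of that range had a median of −0.015.

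**Figure D1:**
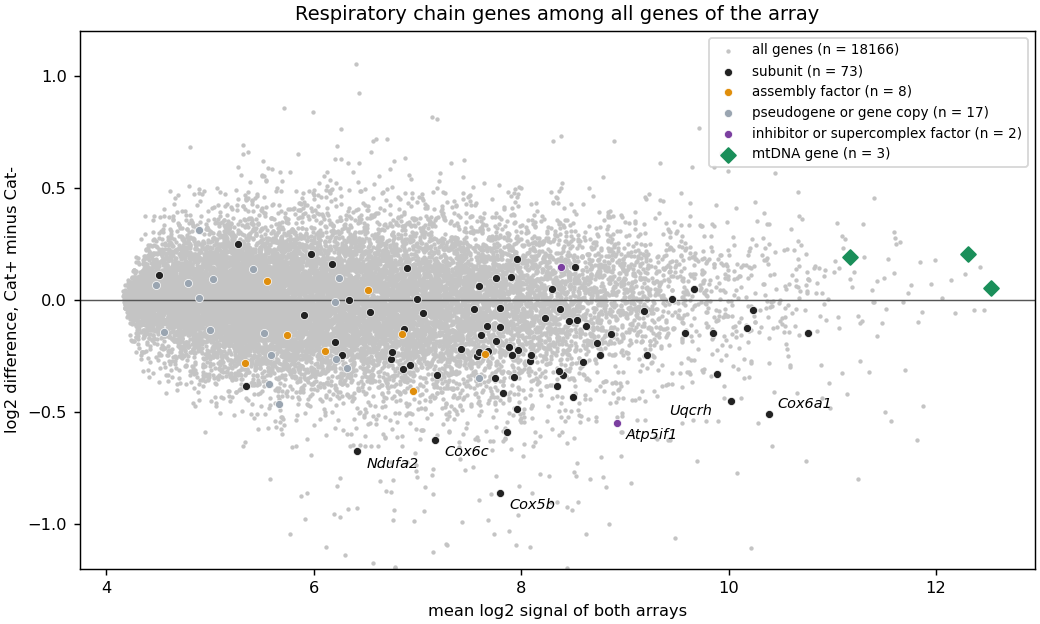
Each point is 1 gene, with the mean log2 signal of both arrays on the horizontal axis and the log2 difference, Cat+ minus Cat-, on the vertical axis; the axis ends at 1.2 in both directions and 38 genes lie outside it. Members (black, orange, grey and purple) lie mostly below 0 between signals of 6 and 11, with Cox5b lowest, and the 3 mtDNA genes (green diamonds) lie above 0 at the right.

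With no replicate arrays, the nearest measure of technical spread was the difference between probe sets of the same gene. Across 276 genes with several probe sets, the SD of their log2 differences was 0.18, a factor of 1.13. This measures probes on the same RNA and not rats. By that yardstick, 48 members were lower in Cat+ by more than 1 SD and 4 were higher, beside 16.2% and 13.7% of all genes.

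Not every gene that the symbols bring together is a subunit. Among the 100 were 73 subunits, 8 assembly factors of complex I (Ndufaf1 to Ndufaf8), 17 pseudogenes or gene copies, the ATP synthase inhibitor Atp5if1 and the supercomplex factor Cox7a2l. Ndufa4 and Ndufa4l2 carry complex I symbols but belong with complex IV, where they are described below. Of the 73 subunits, 58 were lower in Cat+, 16 of them at a fold of 0.8 or less, and the median was −0.18 (fold 0.882). The 17 copies were more evenly divided, with 10 lower and 7 higher and a median of −0.14. Copies share sequence with their parent genes, so their signals may include RNA of the parent, which was not measured.

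The medians of all 5 complexes were below 0. By symbol, complex I had 37 of 49 members lower and a median of −0.18 (fold 0.882), and complex II had 4 of 4 lower and a median of −0.10 (fold 0.933). In complex III, 6 of 9 were lower, with a median of −0.15 (fold 0.904). In complex IV, 15 of 18 were lower, with a median of −0.17 (fold 0.890), and in complex V, 13 of 20, with a median of −0.14 (fold 0.910). The median of complex V depended on the choice of probe sets and was −0.086 with the mean of each gene's probe sets and −0.063 with probe sets of several genes counted. Members with a fold of 0.8 or less numbered 11 in complex I, 0 in complex II, 2 in complex III, 5 in complex IV and 3 in complex V. With only subunits counted, these numbers were 9, 0, 1, 5 and 1. Of all genes, 5.39% had a fold of 0.8 or less. The medians of the complexes differ by less than the range from lowest to highest member within each complex. None of these differences was tested.

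**Figure D2:**
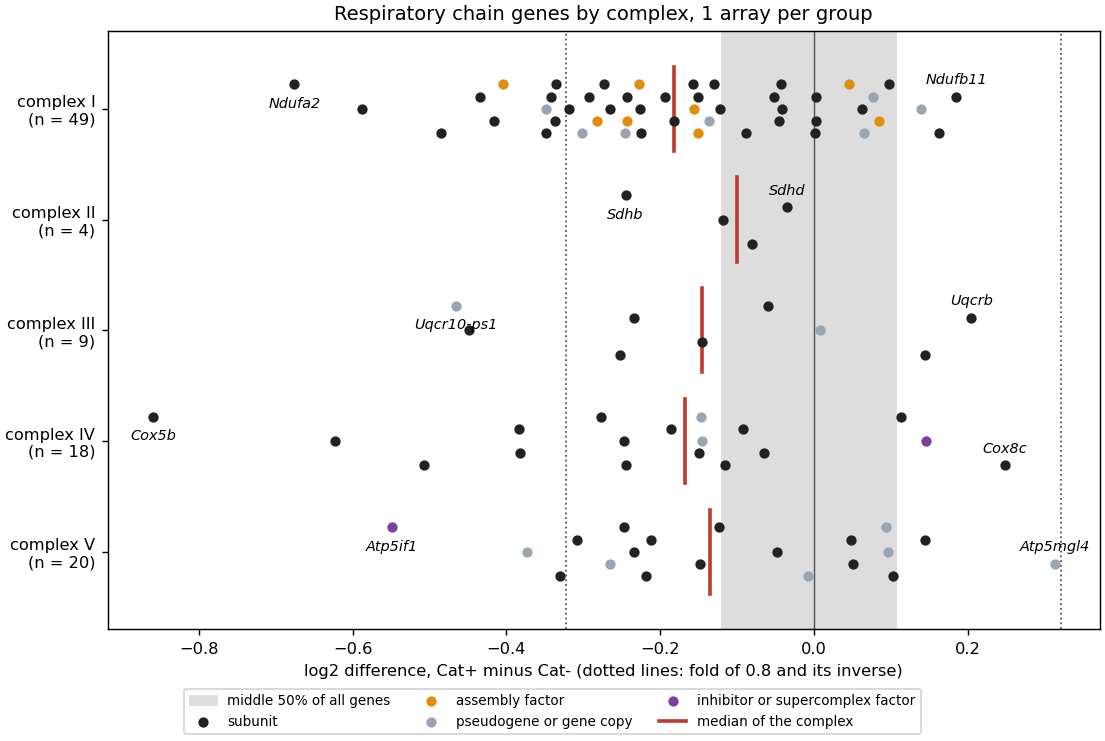
The log2 difference, Cat+ minus Cat-, of each member is shown by complex, with red lines at the median of each complex, a grey band over the middle 50% of all genes and dotted lines at a fold of 0.8 and its inverse. All 5 medians lie left of 0, with 21 members left of the left dotted line and 0 right of the right one.

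Complex I accepts electrons from NADH through a peripheral arm that protrudes into the matrix and pumps protons through a membrane arm. Its nuclear core subunits, which hold the flavin and the iron-sulfur clusters, differed little between the arrays. Ndufs3 read 6.78 in Cat+ and 7.07 in Cat- (fold 0.817), Ndufs8 read 7.95 in Cat+ and 8.22 in Cat- (fold 0.828), and Ndufv1, the subunit that binds NADH and flavin, read 7.57 in Cat+ and 7.79 in Cat- (fold 0.855). Ndufv2 and Ndufs7 were lower by less (folds 0.940 and 0.971), and Ndufs1 read 7.63 in Cat+ and 7.56 in Cat- (fold 1.04). Of these 6 core subunits 5 were lower, and 0 passed the size rule.

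The accessory subunits, which surround the core and stabilise it, held the larger differences of complex I. Of 26 measured, 21 were lower in Cat+, 9 with a fold of 0.8 or less, and their median was −0.21 (fold 0.865). Ndufa2, an accessory subunit of the peripheral arm, read 6.08 in Cat+ and 6.76 in Cat- (fold 0.626). The next lowest folds were all of subunits of the B series, which sit in the membrane arm. Ndufb5 read 7.57 in Cat+ and 8.16 in Cat- (fold 0.665), Ndufb4 read 7.72 in Cat+ and 8.20 in Cat- (fold 0.715), and Ndufb3 read 8.29 in Cat+ and 8.72 in Cat- (fold 0.740). Ndufb2 followed with 7.61 in Cat+ and 8.03 in Cat- (fold 0.749).

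The B series did not move as a block, however. Ndufb8 had a fold of 0.792, Ndufb10 of 0.897 and Ndufb7 of 0.914, while Ndufb9 read 9.46 on both arrays and Ndufb6 was level as well. Ndufb11, another membrane arm subunit, read 8.05 in Cat+ and 7.87 in Cat- (fold 1.14), the highest fold among the accessory subunits. Outside the B series, Ndufc1, Ndufa12 and Ndufs4 passed the size rule, with folds of 0.786, 0.789 and 0.792. Ndufs4 lies at the base of the NADH-oxidising module, and its loss in mice gives an encephalopathy.

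**Figure D3:**
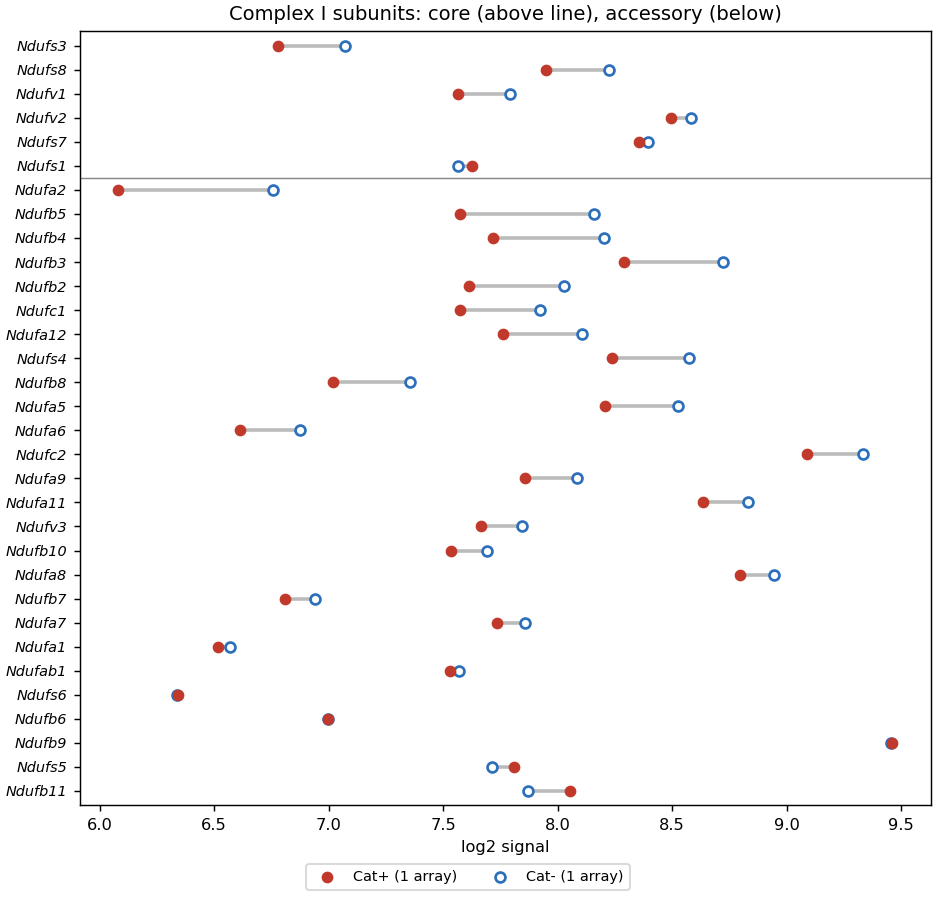
The log2 signal of each complex I subunit is given for the Cat+ array (filled red) and the Cat- array (open blue), joined by a grey bar, with the 6 core subunits above the line and the 26 accessory subunits below it. The red point lies left of the blue point for 26 of the 32 subunits, with the widest gap at Ndufa2 (6.08 in Cat+ and 6.76 in Cat-).

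The complex I assembly factors with Ndufaf symbols, which build the complex and are not part of it, were lower in 6 of 8, with a median of −0.19. Ndufaf8, a small factor that works with Ndufaf5, read 6.76 in Cat+ and 7.17 in Cat- (fold 0.755) and was the only one with a fold of 0.8 or less. Among the copies of complex I genes, Ndufs6-ps1 read 7.42 in Cat+ and 7.77 in Cat- (fold 0.786), while Ndufs6 itself read 6.34 in both.

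Complex II, which is also an enzyme of the tricarboxylic acid cycle, has 4 subunits, all encoded in the nucleus and all measured. The flavoprotein Sdha read 8.19 in Cat+ and 8.27 in Cat- (fold 0.946), and the iron-sulfur subunit Sdhb read 7.97 in Cat+ and 8.22 in Cat- (fold 0.844). The membrane anchors Sdhc and Sdhd had folds of 0.921 and 0.976. All 4 were lower in Cat+, Sdhb alone by more than the SD between probe sets.

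In complex III, Uqcrh, the hinge protein near the docking site of cytochrome c, read 9.79 in Cat+ and 10.24 in Cat- (fold 0.732). The Rieske iron-sulfur subunit Uqcrfs1, which passes electrons on to cytochrome c1, read 6.64 in Cat+ and 6.87 in Cat- (fold 0.850). The core proteins Uqcrc1 and Uqcrc2 differed in sign, with folds of 0.959 and 1.11. The small subunits Uqcrq and Uqcr11 had folds of 0.840 and 0.904, and Uqcrb read 6.08 in Cat+ and 5.87 in Cat- (fold 1.15). A second probe set, which names both Uqcrb and its copy Uqcrbl1, had a fold of 0.901, so the 2 probe sets of Uqcrb differed in sign. The pseudogene Uqcr10-ps1 read 5.44 in Cat+ and 5.90 in Cat- (fold 0.724), and Uqcr10 had no probe set of its own.

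Complex IV, cytochrome c oxidase, held the lowest fold of all members. Cox5b, a zinc-binding subunit on the matrix side, read 7.37 in Cat+ and 8.23 in Cat- (fold 0.551). Cox6c, a small membrane-spanning subunit, read 6.86 in Cat+ and 7.48 in Cat- (fold 0.649), and Cox6a1 read 10.13 in Cat+ and 10.64 in Cat- (fold 0.703). Cox7b had 8.15 in Cat+ and 8.53 in Cat- (fold 0.766). These 4 were the widely expressed subunits with a fold of 0.8 or less.

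The widely expressed subunits with a probe set of their own were lower in Cat+ in 10 of 10, with a median of −0.26 (fold 0.834). Cox7a2 was not counted, because its probe sets also name Cox7a2l2. Their folds were 0.917 and 1.02, so they differed in sign. Cox5a, Cox7c, Cox8a, Cox6b1 and Cox4i1 had folds of 0.826, 0.843, 0.902, 0.923 and 0.938. Ndufa4, which was long counted with complex I, read 10.22 in Cat+ and 10.26 in Cat- (fold 0.969) and was the only one of the 10 whose sign turned under another scaling, quantile normalization of the arrays.

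The isoforms that other tissues use showed no common direction, with 4 of 7 lower and a median of −0.065. Cox8b, the heart and muscle form of subunit 8, read 5.15 in Cat+ and 5.53 in Cat- (fold 0.767). Cox4i2, known as a hypoxia-responsive lung isoform, read 6.15 in Cat+ and 6.39 in Cat- (fold 0.844). Cox8c, the testis form of subunit 8, read 5.39 in Cat+ and 5.14 in Cat- (fold 1.19), and Ndufa4l2, the hypoxia-responsive relative of Ndufa4, read 6.26 in Cat+ and 6.09 in Cat- (fold 1.12). Cox7a2l, which links complexes III and IV into supercomplexes, read 8.46 in Cat+ and 8.31 in Cat- (fold 1.11).

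The catalytic core of complex IV is encoded in mtDNA, and the array's annotation named its 3 genes in capitals, COX1, COX2 and COX3. They are not members by the symbol rule. COX1 read 12.41 in Cat+ and 12.20 in Cat-, a difference of 0.21, and COX2 read 11.27 in Cat+ and 11.07 in Cat-, a difference of 0.19. COX3 read 12.56 in Cat+ and 12.50 in Cat-, a difference of 0.056 that was −0.020 after a loess correction on the mean signal. After that correction COX1 and COX2 differed by 0.13 and 0.14, and under quantile normalization by 0.058 and 0.20. COX3 gave the highest value of each array, so quantile normalization sets its difference to 0 by construction, and saturation was not measured. The medians of all genes of like signal were also above 0, with COX1, COX2 and COX3 counted among those genes. They were 0.060 over 51 genes between 11 and 12 and 0.056 over 9 genes between 12 and 13. The latter is the difference of COX3 itself, so these medians are not a separate background. Summed linear signals had a Cat+ over Cat- ratio of 1.10 for the 3 mtDNA genes and 0.816 for the 18 complex IV members. Bright genes weigh most in such sums, and the brightest of the 18 was Cox6a1 (fold 0.703). Those 18 were taken by symbol, so they include the copies Cox7cl1 and Cox6c-ps1. They leave out Ndufa4l2 and the bright subunit Ndufa4 (10.22 in Cat+ and 10.26 in Cat-, fold 0.969). The difference between these ratios was not tested.

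**Figure D4:**
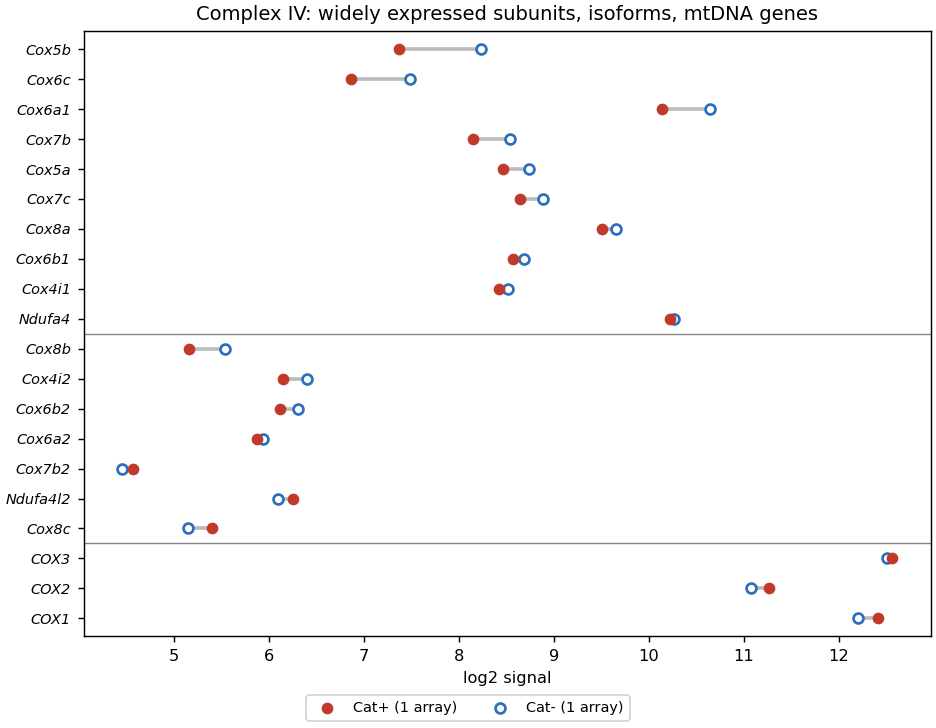
The log2 signals of complex IV genes are given for the Cat+ array (filled red) and the Cat- array (open blue), with 10 widely expressed nuclear subunits at the top, 7 isoforms in the middle and 3 mtDNA genes at the bottom. Red lies left of blue for all 10 subunits at the top, most widely for Cox5b (7.37 in Cat+ and 8.23 in Cat-), and right of blue for the 3 mtDNA genes as deposited.

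In complex V, the largest difference was that of a regulator. Atp5if1, the inhibitory factor that stops ATP synthase from running backwards and hydrolysing ATP, read 8.65 in Cat+ and 9.20 in Cat- (fold 0.684). In the catalytic head and central stalk, Atp5f1d (subunit delta) read 9.72 in Cat+ and 10.05 in Cat- (fold 0.796). The catalytic subunit Atp5f1b read 10.12 in Cat+ and 10.24 in Cat- (fold 0.918), and Atp5f1a read 9.69 in Cat+ and 9.64 in Cat- (fold 1.03).

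The membrane part of ATP synthase was divided. The small membrane subunits Atp5mg, Atp5me, Atp5mf and Atp5mk were lower in 4 of 4, with folds of 0.807, 0.850, 0.860 and 0.903. Both measured genes of the proton-carrying c ring were slightly higher in Cat+, Atp5mc1 with a fold of 1.07 and Atp5mc3 with a fold of 1.04, and a probe set that names Atp5mc2 and its copy had a fold of 1.11. These genes encode the same mature protein, and cross-hybridisation between them was not measured. In the peripheral stalk, Atp5pf, Atp5po and Atp5pb had folds of 0.843, 0.863 and 0.967, and Atp5pd read 6.97 in Cat+ and 6.82 in Cat- (fold 1.11). The highest fold among all members was that of a copy, Atp5mgl4, which read 5.05 in Cat+ and 4.74 in Cat- (fold 1.24).

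For 5 members the array held several probe sets of different value. Ndufv3 had folds of 0.882 and 0.728, Ndufb3 of 0.740 and 0.847, Cox5a of 0.826 and 0.871, and Cox6b1 of 0.923 and 0.935. Only Atp5mk differed in sign, with 10.69 in Cat+ and 10.84 in Cat- on the brighter probe set (fold 0.903) and 9.40 in Cat+ and 9.33 in Cat- on the other (fold 1.05). The array also held 8 probe sets that name a respiratory chain gene together with another gene. One of them shares Ndufs5 with a pseudogene and had a fold of 0.872, where Ndufs5 on its own probe set had 1.07. They were left out of the counts and had folds between 0.829 (Ndufa3 with a pseudogene) and 1.11 (Atp5mc2 with its copy).

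Nuclear respiratory genes are known for a few promoter motifs, those of NRF1, of the ETS factor GABP and of YY1, so the members' promoters were searched for them. RefSeq promoter windows on GRCr8, from 250 bases before to 50 after the start site, were matched for 80 of the 93 protein-coding members. The motifs were GCATGCGC for NRF1, CCGGAAGT for ETS factors and AAGATGGC for YY1, each searched as exact letters on both strands. The forward and reverse forms of the NRF1 motif can overlap each other. The windows below show the 3 matching subunits with the lowest differences for each motif, on the strand of the gene, with the motif in capitals.
ETS, Cox5b, chr9:46417812-46417841 (+): tctgtctgttcCCGGAAGTgcatctgcttg
ETS, Uqcrh, chr5:134790948-134790977 (-): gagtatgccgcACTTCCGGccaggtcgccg
ETS, Uqcrq, chr10:38089982-38090011 (-): ttccgctcctcCCGGAAGTgacgtgcaaag
NRF1, Atp5mg, chr8:54130632-54130657 (-): caatgacGCATGCGCatttccccact
NRF1, Ndufa6, chr7:115750403-115750432 (-): tccgcggtagaGCATGCGCatggcagagcc
NRF1, Sdhb, chr5:158547756-158547785 (+): aagcccagtggGCATGCGCcctactggccg
YY1, Ndufa2, chr18:28631840-28631869 (-): ctttgctagcaAAGATGGCggccgcaagcc
YY1, Ndufs4, chr2:47794892-47794921 (-): ttgcccacaggAAGATGGCggcggtctcaa
YY1, Ndufb8, chr1:253362897-253362926 (-): cggagaaggtgAAGATGGCggcgtcccggg

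The YY1 letters were in 16 of the 80 windows (20%), beside 3.92% of 19005 promoters of protein-coding genes. The NRF1 letters were in 10 (12.5%), beside 3.23%, and the ETS letters in 7 (8.75%), beside 4.99%. Over the 14469 of those promoters whose genes had a probe set of their own, the shares were 4.13% (YY1), 3.71% (NRF1) and 5.76% (ETS). In all, 28 of 80 windows (35%) held at least 1 of the motifs, beside 11.3% of all promoters. Most YY1 matches lay at the start site, since 13 of 16 read forward between 1 base before and 37 after the start site, as in Ndufa2, Ndufs4 and Ndufb8 above. The YY1 letters contain ATG, the start codon of translation. Whether these matches are start codons of the members was not examined, so the 20% may count coding letters. All 17 NRF1 matches and all 8 ETS matches lay before the start site.

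Medians were also taken for members with and without a motif, and their differences were not tested. Lower in Cat+ were 14 of 16 members with the YY1 letters, 8 of 10 with the NRF1 letters and 5 of 7 with the ETS letters. Of all 100 members, which include copies and others without a window, 75 were lower. Members with the YY1 letters had a median of −0.22, beside −0.14 without, and those with the NRF1 letters a median of −0.22, beside −0.15 without. Members with the ETS letters had a median of −0.15, beside −0.16 without. A match is a description of the letters and not of binding, and windows without a match say nothing about the factors.

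The factors that read these motifs were among 22 measured genes of mitochondrial biogenesis and mtDNA upkeep, of which 12 were lower and 10 higher in Cat+, with a median fold of 0.984. The size rule was passed by 2 genes, both higher in Cat+, where 3.36% of all genes were higher by that rule. Gabpb1, a subunit of GABP, read 6.38 in Cat+ and 5.83 in Cat-, a difference of 0.55, and Nrf1 read 7.02 in Cat+ and 6.62 in Cat-, a difference of 0.40. Gabpa, the subunit of GABP that binds DNA, differed by 0.24 and Yy1 by 0.12, both higher in Cat+. Gabpb2 and Gabpb1l, of the same family as Gabpb1, differed by −0.14 and −0.040.

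Lower signals were not common to all mitochondrial genes. The tricarboxylic acid cycle, which supplies the chain with electrons, had 7 of 17 genes lower and a median fold of 1.02, although Pdha1 (pyruvate dehydrogenase) and Dlst (the succinyltransferase of the oxoglutarate dehydrogenase complex) differed by −0.45 and −0.38. Coenzyme Q synthesis had 7 of 12 lower (median fold 0.947), and the electron carriers and related genes 4 of 8 (median fold 0.982), a list that includes the member Atp5if1, with cytochrome c (Cycs) at 7.83 in Cat+ and 7.76 in Cat- and cytochrome c1 (Cyc1) at 7.80 in Cat+ and 7.88 in Cat-. A list of carriers and porins, made of the adenine nucleotide and phosphate carriers, the porins Vdac1 to Vdac3 and the uncoupling proteins and their relatives, had 5 of 11 lower and a median fold of 1.02. Glycolysis, which needs no mitochondria, had 6 of 11 lower and a median fold of 0.970.

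Genes that make and import mitochondrial proteins were mostly lower too. Mitochondrial ribosomal proteins were lower in 54 of 72, with a median fold of 0.930. Of them, 8 had a fold of 0.8 or less, beside 5.39% of all genes. On the higher side 0 passed the rule, beside 3.36% of all genes. Protein import genes were lower in 18 of 24 with a median fold of 0.926. By the size rule 5 of them were lower, beside 5.39% of all genes, and 1 was higher (Timm8a1, fold 1.26), beside 3.36%. Timm23, the channel of the inner membrane, read 9.27 in Cat+ and 9.82 in Cat-. Timm17a, its partner in that channel, read 7.72 in Cat+ and 8.14 in Cat-. The complex I assembly factors outside the symbol rule were lower in 7 of 9, with a median fold of 0.899, and Ecsit, Tmem126a and Tmem126b had folds of 0.8 or less. Cytochrome oxidase assembly factors were lower in 13 of 19 with a median fold of 0.957, where Pet100 (−0.43) and Cox20 (−0.37) were lower and Higd1a, a hypoxia-induced partner of the complex, was higher (0.48). The assembly factors of complexes II and III were lower in 4 of 8 (median fold 0.992), with Sdhaf1, a factor for complex II, at −0.37, and those of ATP synthase in 3 of 4 (median fold 0.932).

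A list from outside mitochondria also had a median below that of all genes. The 127 cytosolic ribosomal protein genes and copies were lower in 93, with a median fold of 0.931. By the size rule 19 were lower, beside 5.39% of all genes, and 4 were higher, beside 3.36%. Genes of mitophagy and of organelle loss were lower in 7 of 7, with a median fold of 0.863. Among them Plaat3, a phospholipase that degrades organelles in maturing lens fibers in zebrafish and mice, read 9.52 in Cat+ and 10.05 in Cat-. Alox15, a lipoxygenase that acts on organelle membranes, read 5.48 in Cat+ and 5.91 in Cat-. Lists of mitochondrial fission and fusion and of peroxide defence had 5 of 8 and 6 of 8 genes lower, with median folds of 0.940 and 0.936. The differences between these lists were not tested.

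**Figure D5:**
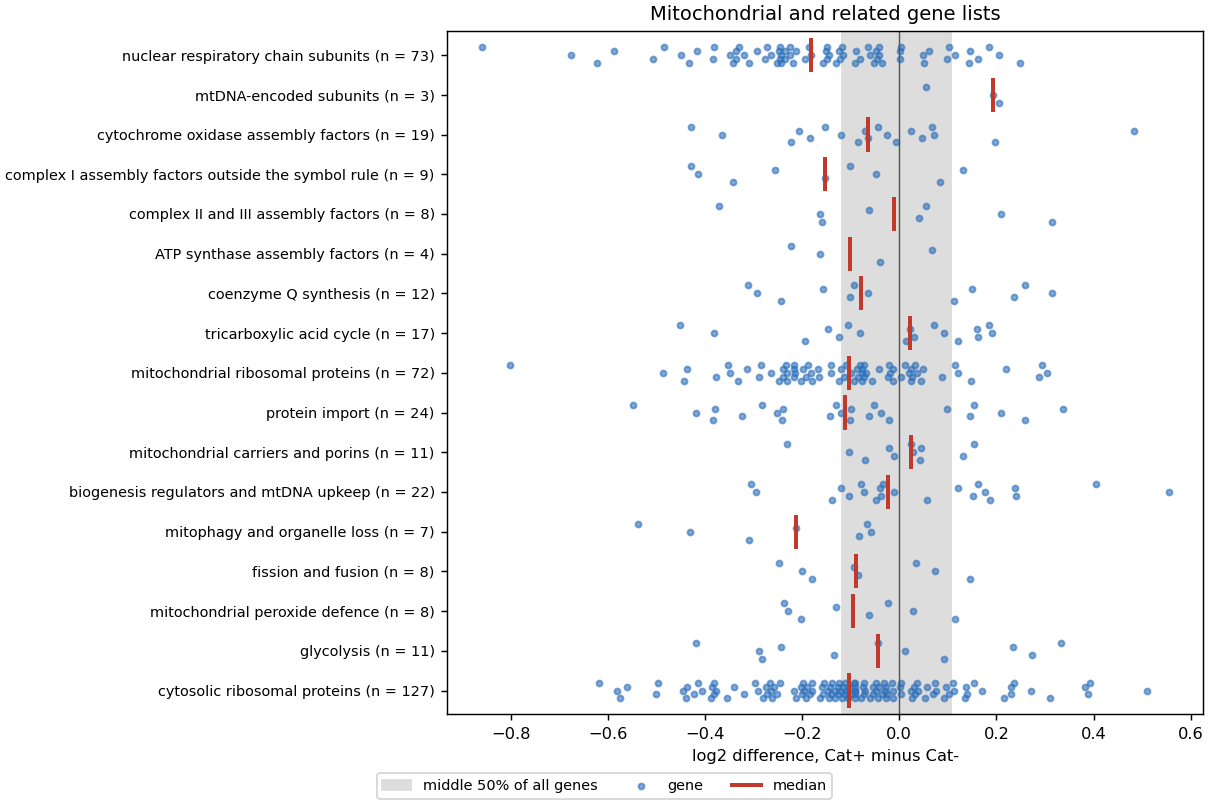
Each point is the log2 difference, Cat+ minus Cat-, of 1 gene, with red lines at the median of each list and a grey band over the middle 50% of all genes. The 73 nuclear subunits (median −0.18), the mitophagy and organelle loss list and the complex I assembly factors have medians left of the band, the 3 mtDNA genes have a median right of it, and the tricarboxylic acid cycle and the carriers have medians just above 0.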

How the data were processed

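RNA of LECs was labelled with the GeneChip WT Pico kit and hybridised to GeneChip Rat Gene 2.0 ST arrays, 1 per group. The deposited unit was log2 signal, normalized by the authors, for 29870 probe sets. Each array was divided by a control or by its average intensity, and GeneSpring 14.9 was used, per the submitters' processing notes and methods. How background was corrected and probes were summarized is not given in the sources used here. The log2 scale was read from the values. Probe sets were named from the platform annotation (18511 with 1 gene, 575 with several, 10784 unnamed), and all 100 members matched RefSeq (GRCr8) with 0 changed symbols. The array files name no genome build, so no probe set coordinates are given.

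Differences, folds, counts and medians were computed with Python 3.11.15, NumPy 2.4.6 and pandas 2.3.3, with no further normalization and no filter, and the code was tested on simulated data. The loess correction (span 0.3) used statsmodels 0.14.6. The number of arrays limits precision. Members and lists were chosen with earlier results of these data known. Named genes came mainly from core subunits, isoforms, the 4 lowest and highest members per complex and members with probe sets of both signs. Members past the size rule and list genes past it (at most 4 per list) were also used. Not every gene of these kinds was named. Among those left out were Atp5mgl1 (fold 0.772) and, of glycolysis, Aldoc (fold 0.748) and Aldoa (fold 1.26). Alternatives were scaling, filters and floors on dim probe sets, the probe set per gene, membership and the fold threshold.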

Additional observations from a re-analysis of the deposited data

How the results depend on the processing

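Direction held for the members as a whole under every alternative run, with a median between −0.20 and −0.15, between 74% and 81.4% of members lower in Cat+, and between 15 and 22 members with a fold of 0.8 or less where the threshold was kept. The median of −0.20 and the share of 81.4% came with only genes whose brighter array reached its median, a filter that 4 members passed through Cat- alone, all 4 lower, and 0 through Cat+ alone. Filtering on the mean of both arrays, an alternative chosen after seeing the data, gave 80.7% of 83 members lower and a median of −0.19. Of the summary values, 99 moved by less than 0.05 (medians) or by a factor under 1.5 (counts) and 6 by more, none turning in sign. The median of complex IV was −0.24 under both of these filters, and that of complex V was −0.063 with probe sets of several genes counted and −0.086 with the mean of a gene's probe sets. The count of 21 members with a fold of 0.8 or less was 4 at 1.5-fold and 0 at 2-fold, and the count of 0 higher was 1 at 1.2-fold, by the construction of those thresholds. The sign turned for 4 members with centring of the arrays, 3 with quantile normalization and 2 with loess, all within 0.045 of 0 as deposited. Ndufv3 was −0.46 on its more different probe set. No paired analysis was possible because each group has 1 array, and for the same reason no array could be left out. Signal over background was not measured, so dim members such as copies and tissue isoforms are the least certain.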
